A study of Mus musculus with 2 samples.

Results

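The smooth muscle contractile genes described here are 10 genes that encode the actin filament, its crosslinkers and the myosin motor of smooth muscle cells: Acta2, Actg2, Tagln, Cnn1, Cnn2, Myh11, Myl9, Mylk, Csrp1 and Tpm1. They were found by matching the gene symbol of each probe set, current or older, to these names. All 10 were on the array, through 11 of its 10833 probe sets with a single gene symbol, out of 8251 genes in all. Their levels were compared between clone D351 and clone D16, 2 mouse mesoangioblast clones measured on 1 Affymetrix U74A array each. Mesoangioblasts are progenitor cells of the vessel wall that can be cultured from embryonic dorsal aorta.

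The clones share their origin and handling. Each descends from a single cell of dorsal aorta taken from C57BL6 embryos at embryonic day 9.5 and kept for 5 days as an explant. Cloning was done over primary embryonic fibroblasts arrested with mitomycin C, in RPMI medium with 20% fetal calf serum, and the cells were later moved to gelatin. The labels name no treatment and no differentiation step for either clone, and each line is 1 clone, so a difference between clones cannot be told apart from a difference between these cultures or arrays. With 1 array per clone no gene could be tested, and the values below are sizes with no p-value.

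In smooth muscle, calcium activates myosin light chain kinase, which phosphorylates the regulatory light chain and lets smooth muscle myosin pull on filaments of smooth muscle actin. Tropomyosin, calponin and transgelin lie along those filaments. Most of these genes are controlled through serum response factor (SRF), which binds the CArG box and is driven toward contractile genes by myocardin and its relatives. They are known to switch on in steps during differentiation. Acta2 and Tagln appear early and also mark activated fibroblasts, Cnn1 appears later, and Myh11 is the late and most lineage-restricted marker.

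Promoter sequences from RefSeq (assembly GRCm38.p6, 250 bases before to 50 after the gene start) matched 7 of the 10 genes: Acta2, Cnn1, Cnn2, Csrp1, Myl9, Mylk and Tpm1. Windows of Tagln, Actg2 and Myh11 were not used here. The windows that hold a CArG box, or a CArG box with 1 G or C in its A/T core, are shown because SRF is the shared regulator of the group. Capitals mark these boxes, and each sequence runs 5′ to 3′ on the strand of its gene.
Acta2 (chr19:34255324-34255623, - strand): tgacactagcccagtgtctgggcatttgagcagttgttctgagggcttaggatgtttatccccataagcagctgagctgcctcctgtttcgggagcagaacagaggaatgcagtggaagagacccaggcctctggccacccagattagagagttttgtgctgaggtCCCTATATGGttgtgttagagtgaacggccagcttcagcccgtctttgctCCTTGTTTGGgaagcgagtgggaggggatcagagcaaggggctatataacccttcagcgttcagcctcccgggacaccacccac
Myl9 (chr2:156775214-156775513, + strand): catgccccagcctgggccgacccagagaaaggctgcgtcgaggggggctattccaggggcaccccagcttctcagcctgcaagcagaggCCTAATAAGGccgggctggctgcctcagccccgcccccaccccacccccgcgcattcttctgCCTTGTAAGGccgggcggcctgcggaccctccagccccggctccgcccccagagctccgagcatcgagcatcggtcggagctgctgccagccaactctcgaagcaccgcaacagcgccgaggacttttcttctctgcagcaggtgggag
Cnn2 (chr10:79988350-79988649, + strand): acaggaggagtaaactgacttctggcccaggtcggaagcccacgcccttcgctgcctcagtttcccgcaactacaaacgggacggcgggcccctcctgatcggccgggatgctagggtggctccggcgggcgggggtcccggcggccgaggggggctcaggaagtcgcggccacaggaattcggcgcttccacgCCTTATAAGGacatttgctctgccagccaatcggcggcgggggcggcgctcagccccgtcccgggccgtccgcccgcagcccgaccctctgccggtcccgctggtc

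The Myl9 window holds the CArG box CCTAATAAGG, whose first base lies 161 bases before the start, and a 1-substitution box, CCTTGTAAGG, 99 bases before it. The Cnn2 window holds CCTTATAAGG at 56 bases before the start. In Acta2 both boxes have 1 substitution in the core, CCCTATATGG at 84 and CCTTGTTTGG at 34 bases before the start; the Acta2 promoter is known for such a pair of degenerate boxes. The other 5 windows, from Cnn1, Mylk, Tpm1 and 2 starts of Csrp1, held neither form on either strand, and the letters TATAAA were found in 0 of the 8 windows on either strand. Among all 32851 windows of 300 bases in the table, 1.63% held a CArG box, 8.50% held one with 1 substitution and 13.6% held TATAAA. These matches describe the letters of the windows and say nothing of binding in either clone.

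All 10 genes were higher in D351. A difference of 2-fold or more toward D351 was seen in 7 of them, and toward D16 in 0. Over the 6101 genes that reached the intensity floor in either clone, such differences toward D351 made up 10.6% and those toward D16 8.83%. The median log2 ratio of D351 over D16 was 1.51 for the contractile genes, with a range from 0.68 to 3.44, and -0.03 for all measured genes. The floor, an intensity of 17.4, is the 40th percentile of the scaled values; a gene below it in 1 clone gives only a bound. Without replicates, the one error on hand is how far probe sets of a gene disagree, an SD of 0.52 in the log2 ratio over 808 genes. Each of the 10 log2 ratios exceeded it, but this SD leaves out differences between cultures or arrays. Of the 6101 genes, 1112 had a higher ratio than Cnn2, the lowest of the 10. In RNA of whole cultures, fewer cells expressing a gene and less of its RNA per cell cannot be told apart.

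The early markers were above the floor in both clones. Acta2, the actin of vascular smooth muscle, had an intensity of 1686 in D351 and 939.5 in D16, a ratio of 1.79. Tagln, which encodes the actin crosslinker transgelin (SM22 alpha), had 1884 in D351 and 643 in D16, 2.93-fold higher in D351. Acta2 fell short of a 2-fold difference and Tagln passed it.

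The later markers were above the floor in D351 alone. Cnn1, the smooth muscle calponin that restrains the actin-activated myosin ATPase, had 157 in D351 and 10.7 in D16, which is below the floor. It was thus at least 9.04-fold higher in D351. Its single probe set has the suffix s, so signal from other transcripts cannot be told apart from Cnn1. Myh11, the smooth muscle myosin heavy chain, had 48.2 in D351 and 2.16 in D16, at least 2.77-fold higher in D351. The Myh11 signal in D351 was itself within 3-fold of the floor. Smtn, which encodes smoothelin, another late contractile marker, had 25.4 in D351 and 13.9 in D16, at least 1.46-fold higher in D351. As lower bounds, the ratio of Cnn1 lies above those of Acta2 and Tagln, and that of Myh11 above that of Acta2. The log2 bound of Myh11, 1.47, exceeds the 0.84 of Acta2 by less than 0.73, the SD of a difference between 2 probe sets of equal ratio. These orders also depend on the floor. With the floor at the 60th percentile, the log2 bound of Cnn1 is 1.56 against 1.55 for Tagln, and Myh11 is below it in both clones. Myh11 cannot be ranked against Tagln, nor Smtn against either early marker.

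Actg2, the actin of enteric and other visceral smooth muscle, had the highest ratio among the 8 contractile genes measured in both clones; that of Cnn1, a bound of at least 9.04, may exceed it. Its intensity was 1129.7 in D351 and 104 in D16, 10.8-fold higher in D351, and 26 of the 6101 genes had a higher ratio, with bounds taken at their value. The single Actg2 probe set has the suffix f, which marks probes matching a gene family, so signal from other actins cannot be told apart from Actg2. The other actin probe sets gave smaller ratios. The cardiac actin gene Actc1, also read by an f probe set, had 408 in D351 and 180.0 in D16 (2.27-fold), and the cytoplasmic actin gene Actg1 had 2976 in D351 and 3415 in D16. The log2 ratio of Actg2 exceeded that of Acta2 by 2.59, that of Actc1 by 2.26 and that of Actg1 by 3.64, where the difference between 2 probe sets of equal ratio has an SD of 0.73.

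A regulatory light chain of the motor and its kinase were also higher in D351, whereas the essential light chain gene Myl6, described below, was higher in D16. Mylk, which encodes myosin light chain kinase, had 546 in D351 and 108 in D16, a 5.07-fold difference. Myl9, the regulatory light chain that this kinase phosphorylates, had 267 in D351 and 111 in D16 (2.40-fold). Both genes were read by single probe sets without a shared-target suffix, with log2 ratios of 2.34 for the kinase and 1.26 for its substrate.

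The filament-associated genes Csrp1, Tpm1 and Cnn2 were between 1.60-fold and 3.67-fold higher in D351. Csrp1, a LIM protein that bridges actin crosslinkers and SRF complexes, is the one gene of the group with 2 probe sets. Its s probe set gave 572 in D351 and 181 in D16 (3.16-fold), and the other gave 524 in D351 and 143 in D16 (3.67-fold). Their log2 ratios of 1.66 and 1.88 differ by less than the probe set spread. Tpm1, the alpha-tropomyosin gene with both muscle and non-muscle transcripts, had 1963 in D351 and 1118 in D16 (1.76-fold). Cnn2, a calponin that is also expressed outside smooth muscle, had 1165 in D351 and 727 in D16 (1.60-fold), the smallest ratio of the 10. Acta2, Tpm1 and Cnn2 are the 3 genes below 2-fold.

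**Figure D1:**
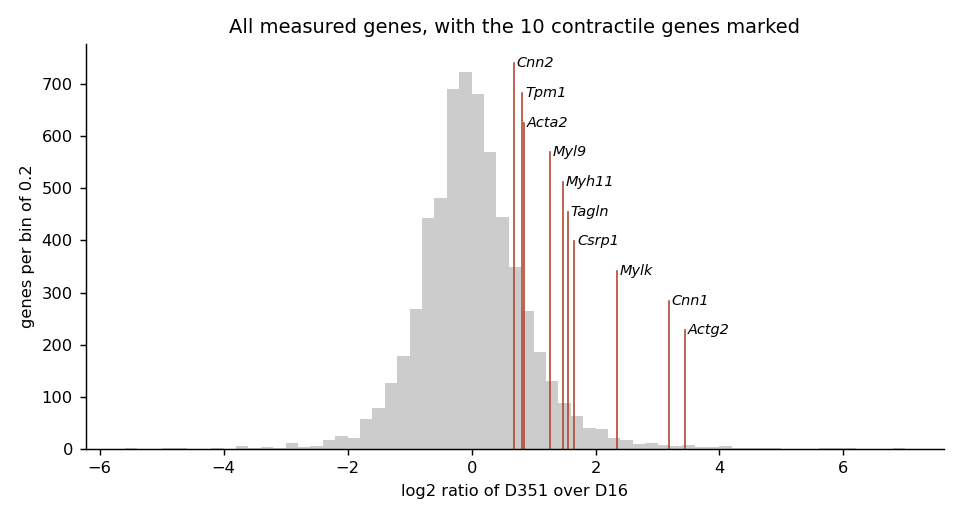
Histogram of the log2 ratio of D351 over D16 for the 6101 genes that reached the floor in either clone (genes per bin of 0.2), with each contractile gene as a labelled line whose height carries no value. The 10 lines lie right of the centre, from 0.68 for Cnn2 to 3.44 for Actg2.

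In the transgelin, calponin and tropomyosin families the contractile genes had higher log2 ratios than their paralogues. Tagln2, the broadly expressed transgelin, went the other way from Tagln: it had 425 in D351 and 1186 in D16, 2.79-fold higher in D16. The log2 ratios of Tagln and Tagln2 differed by 3.03. Among calponins, Cnn3, the non-muscle form, had 1044.5 in D351 and 1045 in D16, a log2 ratio of 0.00 by an f probe set. The log2 ratio was 0.68 for Cnn2 and at least 3.18 for Cnn1, which was read by an s probe set. The gap of 0.68 between Cnn2 and Cnn3 is below the SD of 0.73 for such a difference. Among tropomyosins, Tpm2, Tpm3 and Tpm4 had log2 ratios of -0.44, -0.09 and 0.08, each below the 0.81 of Tpm1. Tpm2 also belongs to the wider list of the smooth muscle apparatus described below, so it is not a non-muscle contrast to Tpm1. The gap of Tpm1 to Tpm3 and to Tpm2 was 0.91 and 1.25, above that SD, and the gap to Tpm4 was 0.73.

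Myh9, a non-muscle myosin heavy chain, had 1709.9 in D351 and 1031 in D16, a log2 ratio of 0.73, against at least 1.47 for Myh11. Myh10, another non-muscle heavy chain, was below the floor in both clones. Myl12b, a regulatory light chain of non-muscle myosin, had 597 in D351 and 281 in D16, and its log2 ratio of 1.09 was close to the 1.26 of Myl9. Myl6, an essential light chain, was at least 2.29-fold higher in D16, at 6.21 in D351 and 39.9 in D16. Csrp2 had a log2 ratio of 0.45, against 1.66 for Csrp1. Acta1, the skeletal actin gene, was below the floor in both clones.

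The cytoplasmic actin gene Actb had log2 ratios of -0.16, 0.00 and 0.25 by its 3′, middle and 5′ control probe sets. An f probe set of Actb, far dimmer, gave 42.6 in D351 and 91.9 in D16. Of 12 measured genes in the list of paralogues, 2 passed 2-fold toward D351 (Actc1 and Myl12b) and 3 toward D16 (Tagln2, Myl6 and Actb by its f probe set), and the median log2 ratio was -0.05. The shares over all measured genes were 10.6% toward D351 and 8.83% toward D16.

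**Figure D2:**
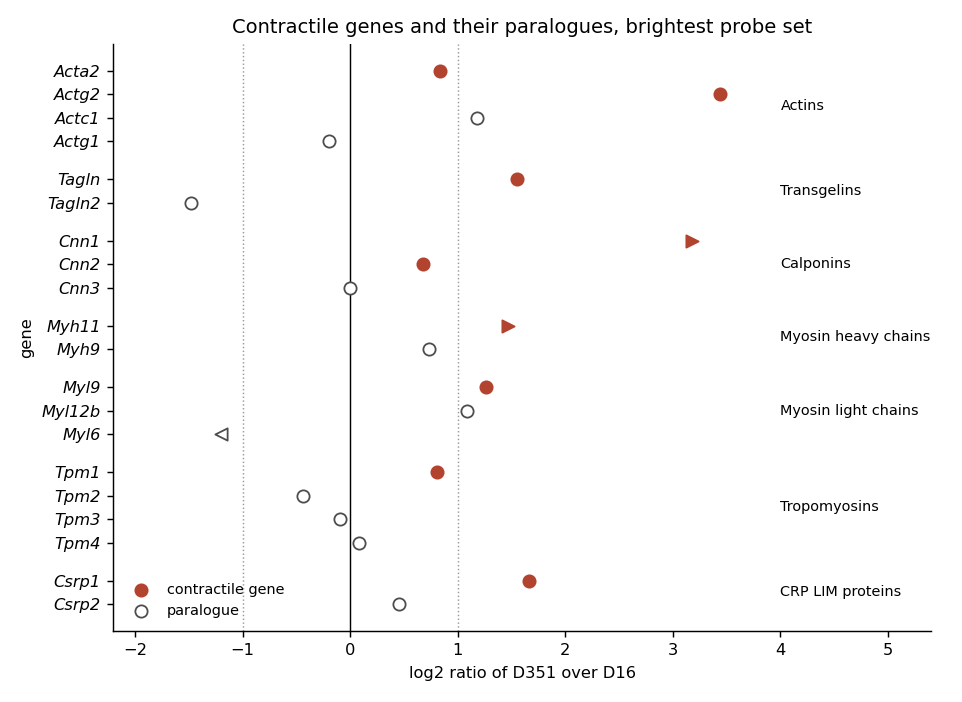
Log2 ratio of D351 over D16 by the brightest probe set of each gene, grouped by family, with contractile genes filled and paralogues open; triangles are bounds pointing toward the clone above the floor, and dotted lines mark 2-fold. Tagln and Tagln2 lie on opposite sides of 0, at 1.55 and -1.48, and the 3 other tropomyosins lie between -0.44 and 0.08.

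A wider list of the smooth muscle apparatus held 42 genes, of which 27 were on the array and 20 were measured. A difference of 2-fold or more was found in 6, each toward D351, against 10.6% of all measured genes. The median log2 ratio was 0.60. By the brightest probe sets 16 log2 ratios were positive and 4 negative, the latter Tpm2 (-0.44), Itga7 (-0.22), Actn4 (-0.22) and Tes (-0.17). The other 7 on the array, among them Kcnmb1, Itga8 and Pdlim3, were below the floor in both clones. Cacna1c, the pore subunit of the L-type calcium channel, had 136 in D351 and 13.5 in D16 by an s probe set, a ratio of at least 7.81. Aoc3, a surface amine oxidase abundant in smooth muscle, was 4.14-fold higher in D351 (203 in D351 and 49.0 in D16). The LIM-only genes Fhl2 and Fhl1 were 3.26-fold and 3.02-fold higher in D351; a second Fhl1 probe set gave 3.21-fold. Des, the muscle intermediate filament gene, had 41.0 in D351 and 5.60 in D16, at least 2.36-fold higher in D351. Cald1 and Lmod1 were not analysed here.

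Of 23 measured regulators of the contractile programme, 2 differed by 2-fold or more toward D351 and 2 toward D16, shares near the 10.6% and 8.83% of all genes. Their median log2 ratio was 0.31. Klf5, a Krüppel-like factor of immature and proliferating smooth muscle, was 7.15-fold higher in D16, at 18.7 in D351, near the floor, and 134 in D16. Gata6, a transcription factor of vascular smooth muscle, had 50.3 in D351 and 9.04 in D16 by its brightest probe set, a ratio of at least 2.89. The other probe sets of Gata6 were below the floor in both clones. Gata4 was 2.43-fold higher in D16 (28.2 in D351 and 68.5 in D16). Prrx1, a homeobox factor of mesenchyme, was 2.31-fold higher in D351. Mrtfa, the actin-sensing SRF coactivator, had 345.5 in D351 and 173 in D16, a ratio of 1.99. Klf4, a repressor of contractile genes in smooth muscle, had 147 in D351 and 119 in D16, a log2 ratio of 0.31 within the probe set spread. Srf, Myocd and Mrtfb were not analysed here.

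SRF also acts with ternary complex factors on immediate early genes, which respond to serum within minutes. Of 10 such genes, all measured, 3 passed 2-fold toward D16 and 1 toward D351, with a median log2 ratio of -0.58. Over all measured genes, 8.83% passed 2-fold toward D16 and 10.6% toward D351. Nr4a1, Jun and Ier2 were 3.05-fold, 2.80-fold and 2.19-fold higher in D16. The matricellular gene Ccn2 was 2.52-fold higher in D351, at 851.5 in D351 and 338 in D16.

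Markers of other cells were read from the same arrays. For comparison with the counts of each list, 10.6% of all measured genes passed 2-fold toward D351 and 8.83% toward D16. Of 27 skeletal and cardiac muscle genes, 16 were below the floor in both clones, and of the 11 measured 1 passed 2-fold toward D351 (Actc1, whose f probe set can match other actins), with a list median of -0.22. Of 11 fibroblast markers, 10 were measured, 5 passed 2-fold toward D351 and 1, S100a4, toward D16 (4.42-fold). Among those toward D351 the ratios of Lum, Postn and Col3a1 were 4.02, 2.94 and 2.54. Of the 10, 7 log2 ratios were positive and 3 negative, the latter including Thy1 (-0.56) and, by its brightest probe set, Pdgfra (-0.09). The summed intensity of the fibroblast list was 12728 in D351 and 8843 in D16. Its median log2 ratio of 0.82 moved in the same direction as the contractile genes, and the part of fibroblasts in the contractile result was not tested.

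Pdgfrb, a receptor of pericytes and other mural cells, was 3.62-fold higher in D351, and the other 4 measured pericyte genes did not reach 2-fold, 2 of them as bounds. The summed pericyte list was 475.5 in D351 and 282 in D16, and its part in the result was likewise not tested. Of 10 endothelial genes, 7 were below the floor in both clones, among them the defining genes Cdh5 and Kdr, and Flt1 was at least 3.80-fold higher in D351. The other 2 measured, Pecam1 and Eng, had log2 ratios of -0.60 and -0.07, and the median of this list was -0.07. Of 7 haematopoietic genes, 3 were below the floor in both, among them the pan-leukocyte gene Ptprc, and Cd68 was at least 2.12-fold higher in D351. The other 3 measured had negative log2 ratios by their brightest probe sets: Spi1 (a bound of -0.61), Laptm5 (-0.55) and Csf1r (-0.27). The median of this list was -0.41. The summed endothelial list was 234 in D351 and 213 in D16, and the summed haematopoietic list 103.7 in D351 and 103.5 in D16.

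**Figure D3:**
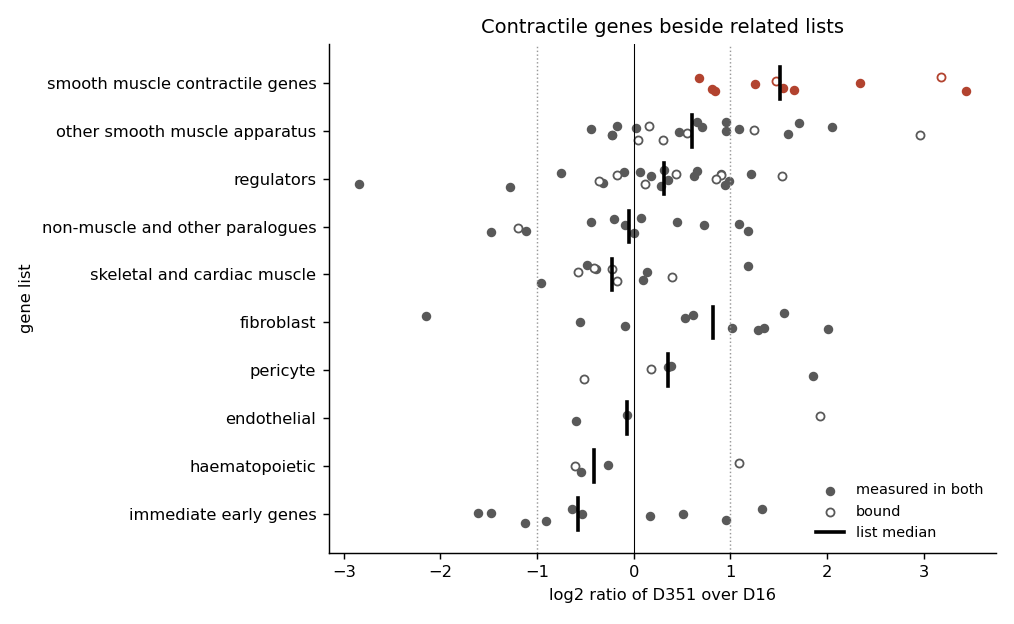
Log2 ratio of D351 over D16 for measured genes of each list, with filled points measured in both clones, open points bounds, bars list medians and dotted lines 2-fold; vertical jitter carries no value, and a few genes stand in 2 lists. The contractile genes have a median of 1.51 and none below 0.68, while the immediate early genes have a median of -0.58.

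Scaling changed how many contractile genes passed 2-fold. When the hybridization controls set the scale, the median of all genes shifted to 0.34 and all 10 contractile genes passed 2-fold toward D351, against 19.9% of all genes; their median of 1.81 lay 1.46 above that of all genes. In that scaling Actg1, Cnn3 and Tpm3 had positive log2 ratios (0.19, 0.39 and 0.30), and that of Actg1 was also 0.11 with quantile normalization and 0.04 with loess, whereas Tagln2 kept a negative ratio in each of the 5 scalings (-1.53 to -1.09). The median of the paralogue list was 0.35 on the hybridization controls, 0.01 with quantile normalization and 0.04 with loess, and that of the skeletal and cardiac list 0.00 on the hybridization controls. On those controls the wider smooth muscle list had 10 genes past 2-fold toward D351, the regulators had 9 toward D351 and 1 toward D16, and the immediate early genes had 2 each way; Gata4 and Ier2 no longer passed 2-fold, at log2 ratios of -0.89 and -0.74. Without probe sets that can share targets, Actg2 and Cnn1 dropped out, and 5 of 8 genes passed 2-fold toward D351, with a median of 1.37.

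**Figure D4:**
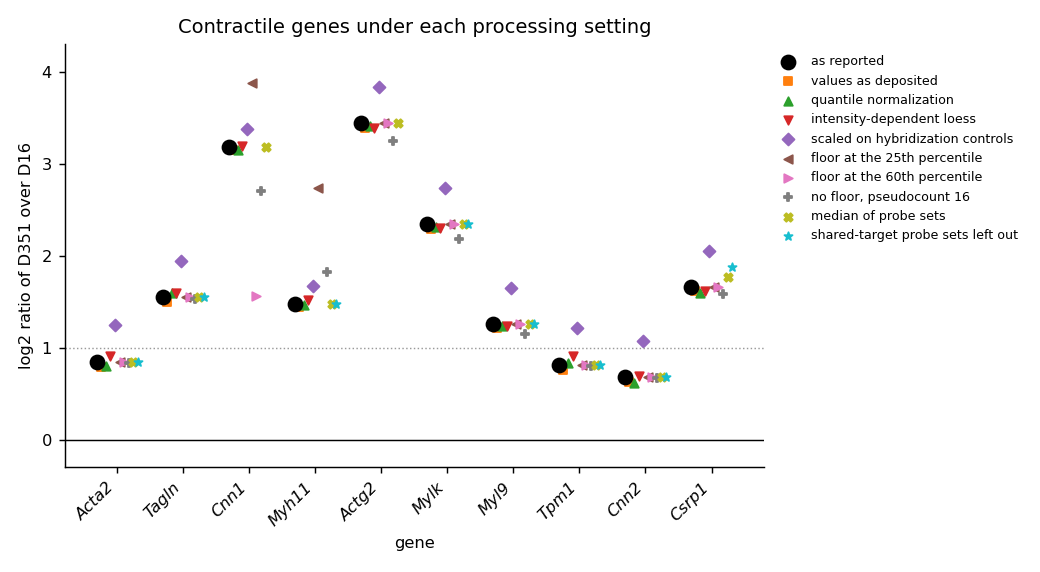
Log2 ratio of D351 over D16 of each contractile gene under the reported setting (large circles) and 9 alternatives, with 2-fold dotted. Each value lies above 0; Cnn1 and Myh11, bounds in the reported setting, range most over the alternatives, from a bound of 1.56 to a measured 3.88 for Cnn1 and from 1.44 to 2.73 for Myh11.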

How the data were processed

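Total RNA of clones D351 and D16 was measured on 1 array each. The authors deposited a table with 1 linear intensity for each probe set and clone; its software and background method are not given in the sources used. Gene names came from the platform's annotation, with symbols updated by Entrez gene number to RefSeq (GRCm38.p6). The labels name the array U74A and the annotation is for its version 2; which version was hybridized was not checked, and the gene names rest on it. Of 12422 non-control probe sets, 10833 had 1 symbol, 396 several and 1193 none; the last 2 kinds named no gene.

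Array medians (log2, probe sets reaching the floor in both clones, controls left out) were equalised (factors of 1.018 for D351 and 0.983 for D16). Lower values were raised to the floor, the 40th percentile, and log2 ratios followed. The brightest probe set stood for a gene. Probe sets suffixed f or s can match other transcripts. The number of arrays limits the precision, no test was possible, and replicates were not compared. Likeness of pattern was not ranked, since 2 arrays give a gene 1 ratio.

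The genes and lists were chosen with earlier results of these data known. Named genes were the 10 contractile genes, their paralogues, Srf, Myocd, Mrtfa, Mrtfb, Klf4, Des, Smtn, Cald1 and Lmod1, and from each list up to 4 genes past 2-fold, largest first. Cdh5, Kdr and Ptprc were added to show markers below the floor, and Actb to name every paralogue past 2-fold. The calculation was tested on simulated arrays with known ratios. Python 3.11.15, numpy 2.4.6, pandas 2.3.3, statsmodels 0.14.6 and matplotlib 3.10.9 were used.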

Additional observations from a re-analysis of the deposited data

How the results depend on the processing

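No paired analysis was possible because the clones have single arrays, and leaving out a replicate was not possible either. Under 9 alternatives of scaling, floor and probe set choice, 5 to 10 contractile genes passed 2-fold toward D351 and 0 toward D16. Their median log2 ratio ran from 1.37 to 1.81. The 5 were of 8 genes, without shared-target probe sets, and the floor at the 60th percentile gave 6 of 9. The 10 came with scaling on the hybridization controls, where 19.9% of all genes passed. Each other alternative gave 7 of 10, against 8.75% to 11.9% of all genes. At a threshold of 4-fold the count was 3, against 2.28% of all genes, and at 1.5-fold it was 10, against 21.1%. All alternatives reuse the same 2 arrays, and some leave a value unchanged by construction, as a new floor does for genes above it in both clones. Of 87 values of single contractile genes, 84 stayed within the probe set spread and 3 moved by more, none reversing. Those 3 belong to Cnn1 (3.88 and 1.56) and Myh11 (2.73), bounds in the reported setting: at the 25th percentile (7.27) Cnn1 is measured in both clones, above the 3.44 of Actg2, and the bound of Myh11 rises by construction. At the 60th percentile (53.2) the bound of Cnn1 drops, and Myh11 falls below the floor in both clones. Signal over background could not be assessed beyond the floor. The Actb control probe sets had a 3′ over 5′ ratio of 1.37 in D351 and 1.81 in D16; the part of RNA quality in the contractile ratios was not tested.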
